A study of Mus musculus with 12 samples.

Results

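The Notch pathway genes described here are 10 genes, namely the receptors Notch1, Notch2 and Notch3, the nuclear partners Rbpj, Maml1 and Maml2, and the target genes Hes1, Hey1, Nrarp and Dtx1. They were read on 12 probe sets, Rbpj and Dtx1 on 2 each and every other gene on 1, of 23521 probe sets with 1 gene symbol that stand for 22180 genes. All 10 genes were found by their symbols and none was removed by a filter on low values. The genes were chosen by pathway with results from these same arrays in view, so the measured differences between groups entered the choice. Their differences are therefore given as a description, and no p-value is printed beside them here. Expression was measured on Affymetrix arrays in Treg, the Foxp3-expressing T cells that restrain immune responses, which had been sorted from spleens by flow cytometry.

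All arrays came from DEREG mice with ovalbumin (OVA) driven allergic airways disease. In these mice the Foxp3 promoter drives the receptor for diphtheria toxin (DTx) together with a green fluorescent reporter, and giving the toxin depletes cells that express Foxp3. The 3 groups had 4 biological replicates each. The iTreg group came from OVA-sensitised and OVA-challenged mice that received DTx and pooled human immunoglobulin (IVIg). The e_iTreg group came from such mice given IVIg without DTx, and its label describes induced Treg mixed with endogenous ones. The eTreg group came from such mice given human serum albumin (HSA), the protein control, without DTx. The doses were 40 ng/g for DTx and 2 g/kg for IVIg and for HSA. The growth protocol is worded alike for every sample and places DTx before IVIg or HSA, whereas the series design lists DTx for the iTreg group alone, and the groups here follow the design. Mice given both DTx and HSA were not among the groups analysed here, so DTx and IVIg changed together in iTreg against eTreg, and iTreg against e_iTreg differ in DTx. The age and sex of the animals, and whether animals were pooled, are not stated in the labels.

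Notch receptors are cut when they bind a Delta or Jagged ligand on a neighbouring cell, first by an ADAM protease and then by gamma-secretase. The freed intracellular domain enters the nucleus, joins the DNA-binding protein RBPJ and a Mastermind coactivator, and switches on genes such as Hes1, Hey1, Nrarp and Dtx1. In lymphocytes Notch1 is known for committing thymic progenitors to the T lineage and Notch2 for the formation of marginal zone B cells, and Notch signals also shape the function of mature helper T cells and Treg.

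Values are log2 expression values per probe set, and a difference of 1 is a 2-fold change. A probe set passed the test where its p-value from limma, adjusted by the Benjamini-Hochberg method over all 23521 probe sets, was below 0.05. Levels are compared between groups within a probe set and never between genes, because probe sets differ in brightness. In sorted cell populations fewer cells of a type and less RNA per cell cannot be told apart.

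The sequences before the start sites of Notch2 and Maml2 are shown first, because both genes were lower in iTreg than in eTreg. Each is the 250 bases upstream of a start site in RefSeq on GRCm38.p6, plus strand, written 5′ to 3′. Capitals mark a match to the core sequence bound by RBPJ, TGGGAA, which reads TTCCCA on the other strand. The Notch2 stretch is chr3:98013288-98013537, and the stretches before the 2 annotated starts of Maml2 are chr9:13297708-13297957 and chr9:13662210-13662459.
Notch2: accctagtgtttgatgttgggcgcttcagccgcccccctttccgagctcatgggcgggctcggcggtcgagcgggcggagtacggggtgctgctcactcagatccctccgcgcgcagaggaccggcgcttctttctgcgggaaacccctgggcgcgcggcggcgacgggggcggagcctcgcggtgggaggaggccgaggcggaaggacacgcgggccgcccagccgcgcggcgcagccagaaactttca
Maml2 at its first start: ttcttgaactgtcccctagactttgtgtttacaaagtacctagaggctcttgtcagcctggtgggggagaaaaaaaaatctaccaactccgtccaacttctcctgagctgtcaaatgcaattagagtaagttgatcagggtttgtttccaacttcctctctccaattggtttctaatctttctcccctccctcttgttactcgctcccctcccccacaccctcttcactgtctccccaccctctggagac
Maml2 at its second start: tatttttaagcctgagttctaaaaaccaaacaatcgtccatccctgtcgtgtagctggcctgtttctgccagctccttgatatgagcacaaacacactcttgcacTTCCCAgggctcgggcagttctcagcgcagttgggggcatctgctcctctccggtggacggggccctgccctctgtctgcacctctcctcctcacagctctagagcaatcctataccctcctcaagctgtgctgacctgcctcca

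The search window ran from 250 bases before to 50 bases after each start site, on both strands, for TGGGAA and for the longer CGTGGGAA, which contains it. The promoter table held windows for 8 of the 10 genes, 10 windows in all, and Hes1 and Hey1 are named only. The core occurred in 3 of the 10 windows. One match lay at -145 from the second Maml2 start, counted in bases. The other matches were in both windows of Rbpj, at -149 and -65 from one start and at -205 from the other. The windows of Rbpj overlap, and the matches at -65 and -205 are the same site, counted in both. The longer sequence occurred in none of the 10 windows. Among all 32851 windows in the table, 25.56% held the core and 0.73% held the longer sequence. These matches describe letters in a window and carry no statement about binding.

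Of the 12 probe sets, 3 were lower in iTreg than in eTreg and 0 were higher, namely the single probe sets of Hey1, Notch2 and Maml2. Over all probe sets 4.63% were lower and 5.36% were higher. Against e_iTreg, 1 of the 12 was lower in iTreg, that of Hey1, and 0 were higher, beside 4.75% lower and 6.49% higher over all probe sets. Since these contrasts chose the genes, nothing is read from the counts. In e_iTreg against eTreg 0 of the 12 passed, and 0 of all 23521 probe sets passed (0% called). In that contrast 0 of the 12 had an unadjusted limma p below 0.05, beside 1649 of all 23521 probe sets, and nothing is read from that count. The contrasts of iTreg with eTreg and with e_iTreg share the iTreg arrays, and their values are set side by side below.

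**Figure D1:**
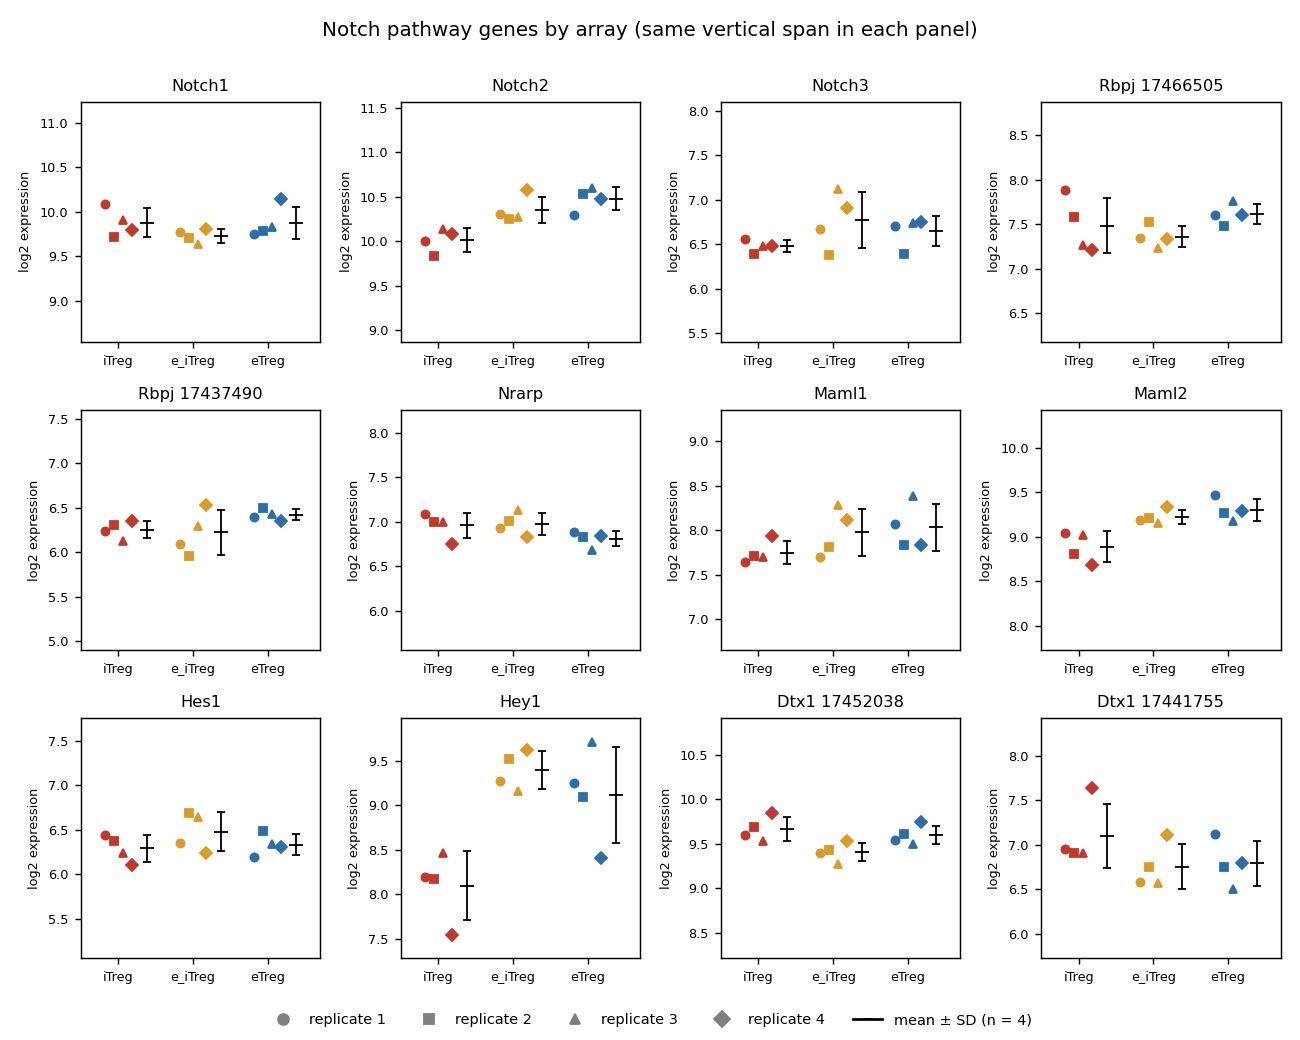
Log2 expression of the 12 probe sets of the 10 Notch pathway genes on every array. Symbols are replicates 1 to 4 of iTreg, e_iTreg and eTreg from left to right, bars are the mean ± SD (n = 4), and every panel has the same vertical span; all 4 iTreg arrays of Hey1 lie below all 4 e_iTreg arrays.

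The median log2 difference over the 12 probe sets was -0.15 in iTreg minus eTreg, -0.10 in iTreg minus e_iTreg and -0.07 in e_iTreg minus eTreg. Over all probe sets the medians were -0.01, -0.07 and 0.03 in the same order of contrasts. The difference was negative for 9 of 12 probe sets in iTreg minus eTreg, beside 53.3% of all probe sets. It was negative for 7 of 12 in iTreg minus e_iTreg, beside 63.3% of all, and for 8 of 12 in e_iTreg minus eTreg, beside 41.1% of all. The arrays of 2 groups did not overlap for 2 of 12 probe sets in iTreg against eTreg (14.7% of all probe sets) and for 4 of 12 in iTreg against e_iTreg (16.6% of all). They did not overlap for 0 of 12 in e_iTreg against eTreg (4.29% of all).

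Among the receptors, Notch2 was lower in iTreg. Its 4 iTreg arrays read 10.001, 9.83, 10.14 and 10.08, the e_iTreg arrays 10.31, 10.24, 10.27 and 10.57, and the eTreg arrays 10.29, 10.53, 10.59 and 10.48. Every iTreg array lay below every array of both other groups, and the e_iTreg and eTreg arrays overlapped. The mean was 10.01 ± 0.13 in iTreg, 10.35 ± 0.15 in e_iTreg and 10.47 ± 0.13 in eTreg (SD, n = 4 each). The log2 difference was -0.46 ± 0.11 (SE) in iTreg minus eTreg, with a 95% confidence interval from -0.69 to -0.23, which is 1.38-fold lower. In iTreg minus e_iTreg it was -0.34 ± 0.11, with an interval from -0.56 to -0.11, and did not pass the threshold. It did pass there after quantile normalization, at -0.42, but after median centring it was smaller, at -0.25, and did not pass. The difference of iTreg from eTreg missed the threshold without the 3 arrays of lowest B cell marker signal, at -0.40, and without 3 arrays that carried the signal of only 1 sex, at -0.44.

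Notch1, the receptor of early T cell development, did not pass in any contrast. Its values were 10.09, 9.71, 9.91 and 9.80 in iTreg, 9.78, 9.70, 9.64 and 9.81 in e_iTreg, and 9.75, 9.79, 9.83 and 10.14 in eTreg. The ranges of all 3 groups overlapped, and 1 iTreg array and 1 eTreg array stood above 10. The difference was -0.00 ± 0.11 in iTreg minus eTreg, with an interval from -0.24 to 0.23, and its sign turned under median centring, at 0.01. It was 0.15 ± 0.11 in iTreg minus e_iTreg, with an interval from -0.09 to 0.38.

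Notch3, a receptor also known from developing thymocytes, varied most among e_iTreg arrays. It read 6.56, 6.39, 6.48 and 6.48 in iTreg, 6.68, 6.38, 7.12 and 6.90 in e_iTreg, and 6.71, 6.39, 6.73 and 6.75 in eTreg. Replicate 2 was the lowest array in every group, and its e_iTreg and eTreg values lay inside or just below the range of iTreg. The difference was -0.17 ± 0.14 in iTreg minus eTreg, with an interval from -0.46 to 0.13. In iTreg minus e_iTreg it was -0.29 ± 0.14, with an interval from -0.59 to 0.00, and it passed the threshold only when e_iTreg replicate 2 was left out, at -0.42.

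In the nuclear complex, Maml2, a Mastermind coactivator that binds RBPJ and the intracellular domain, was lower in iTreg than in eTreg. The iTreg arrays read 9.04, 8.80, 9.01 and 8.68, the e_iTreg arrays 9.18, 9.21, 9.15 and 9.33, and the eTreg arrays 9.47, 9.26, 9.17 and 9.29. As for Notch2, all 4 iTreg arrays lay below all 8 others. The mean was 8.88 ± 0.17 in iTreg, 9.22 ± 0.08 in e_iTreg and 9.30 ± 0.12 in eTreg (SD, n = 4 each). The difference was -0.41 ± 0.10 in iTreg minus eTreg, with an interval from -0.64 to -0.19, which is 1.33-fold lower. In iTreg minus e_iTreg it was -0.33 ± 0.10, with an interval from -0.55 to -0.11, and did not pass. There it passed after quantile normalization, at -0.43, but after median centring it was smaller, at -0.24, and did not pass. The difference from eTreg missed the threshold when eTreg replicate 1 (-0.36) or iTreg replicate 4 (-0.35) was left out, without the 3 arrays of lowest B cell marker signal (-0.48) and without the 3 arrays with the signal of 1 sex (-0.39).

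Maml1, the founding mammalian Mastermind gene, did not pass in any contrast. It read 7.64, 7.71, 7.70 and 7.94 in iTreg, 7.70, 7.81, 8.28 and 8.12 in e_iTreg, and 8.07, 7.84, 8.39 and 7.83 in eTreg. The ranges overlapped, and 3 of 4 iTreg arrays lay below all eTreg arrays. The difference was -0.28 ± 0.15 in iTreg minus eTreg, with an interval from -0.60 to 0.03, and -0.23 ± 0.15 in iTreg minus e_iTreg, with an interval from -0.54 to 0.08.

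Rbpj, the DNA-binding partner of all 4 Notch receptors, was read by probe sets 17466505 and 17437490. Probe set 17466505 gave 7.88, 7.58, 7.27 and 7.21 in iTreg, 7.34, 7.53, 7.24 and 7.34 in e_iTreg, and 7.60, 7.49, 7.76 and 7.61 in eTreg. Its iTreg arrays spread more widely than those of either other group and overlapped both. Probe set 17437490 gave 6.23, 6.31, 6.13 and 6.35 in iTreg, 6.10, 5.96, 6.30 and 6.54 in e_iTreg, and 6.40, 6.50, 6.43 and 6.35 in eTreg. In iTreg minus eTreg the differences were -0.13 ± 0.13 and -0.17 ± 0.12, and in iTreg minus e_iTreg they were 0.13 ± 0.13 and 0.03 ± 0.12, in the order of the probe sets above. None passed the threshold, and both intervals in each contrast included 0.

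Among the target genes, Hey1 had the largest difference of the 12 probe sets. Hey1 encodes a transcriptional repressor of the basic helix-loop-helix type that Notch signals induce in many tissues. Its iTreg arrays read 8.20, 8.17, 8.47 and 7.55, the e_iTreg arrays 9.28, 9.52, 9.16 and 9.62, and the eTreg arrays 9.25, 9.09, 9.71 and 8.41. All iTreg arrays lay below all e_iTreg arrays. They lay below 3 of the 4 eTreg arrays, while eTreg replicate 4 was below iTreg replicate 3. The mean was 8.10 ± 0.39 in iTreg, 9.39 ± 0.21 in e_iTreg and 9.12 ± 0.54 in eTreg (SD, n = 4 each).

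The Hey1 difference was -1.30 ± 0.23 in iTreg minus e_iTreg, with an interval from -1.80 to -0.80, which is 2.46-fold lower. It passed under all 28 other settings tried, between -1.42 and -1.04. In iTreg minus eTreg it was -1.02 ± 0.23, with an interval from -1.52 to -0.52, which is 2.03-fold lower. That difference passed whichever single array was left out, between -1.26 and -0.82, but without the 3 arrays with the signal of 1 sex it was -0.64 ± 0.20 and missed the threshold. In e_iTreg minus eTreg it was 0.28 ± 0.23, with an interval from -0.22 to 0.78.

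Hes1, the related repressor that is a standard readout of Notch signalling, did not pass in any contrast. It read 6.44, 6.38, 6.24 and 6.11 in iTreg, 6.35, 6.69, 6.65 and 6.24 in e_iTreg, and 6.20, 6.48, 6.34 and 6.31 in eTreg. The 3 groups overlapped throughout. The difference was -0.04 ± 0.12 in iTreg minus eTreg, with an interval from -0.30 to 0.21, and -0.19 ± 0.12 in iTreg minus e_iTreg, with an interval from -0.45 to 0.07.

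Nrarp encodes an ankyrin-repeat protein that Notch induces and that limits the Notch complex in return. It read 7.09, 6.996, 6.996 and 6.76 in iTreg, 6.94, 7.01, 7.13 and 6.83 in e_iTreg, and 6.89, 6.83, 6.69 and 6.84 in eTreg. In iTreg, 3 of 4 arrays lay above all eTreg arrays and replicate 4 lay within their range. The difference was 0.15 ± 0.10 in iTreg minus eTreg, with an interval from -0.07 to 0.36. In iTreg minus e_iTreg it was -0.02 ± 0.10, with an interval from -0.23 to 0.20, and its sign turned under median centring, at 0.07, and under quantile normalization, at 0.02.

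Dtx1, which encodes the ubiquitin ligase Deltex and is not to be confused with the toxin, was read by probe sets 17452038 and 17441755. Probe set 17452038 gave 9.60, 9.69, 9.53 and 9.85 in iTreg, 9.39, 9.44, 9.28 and 9.53 in e_iTreg, and 9.55, 9.61, 9.50 and 9.74 in eTreg. Every iTreg array was above every e_iTreg array, though the closest pair, both at 9.53, differed in the third decimal, and the iTreg and eTreg arrays overlapped. Its difference was 0.26 ± 0.10 in iTreg minus e_iTreg, with an interval from 0.05 to 0.47, which did not pass, and 0.07 ± 0.10 in iTreg minus eTreg, with an interval from -0.14 to 0.28. Under quantile normalization the difference from e_iTreg was 0.14.

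Probe set 17441755 of Dtx1 gave 6.95, 6.91, 6.91 and 7.64 in iTreg, 6.59, 6.75, 6.57 and 7.11 in e_iTreg, and 7.12, 6.75, 6.51 and 6.79 in eTreg. The iTreg value of replicate 4 stood above all other arrays, and the other iTreg arrays lay inside the eTreg range. The difference was 0.31 ± 0.18 in iTreg minus eTreg, with an interval from -0.07 to 0.69, and 0.35 ± 0.18 in iTreg minus e_iTreg, with an interval from -0.03 to 0.73. Neither passed. Without iTreg replicate 4 the differences of this probe set were 0.13 against eTreg and 0.17 against e_iTreg. For probe set 17452038 the difference from eTreg was 0.01 without that array and turned sign, at -0.02, without the 3 arrays with the signal of 1 sex.

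**Figure D2:**
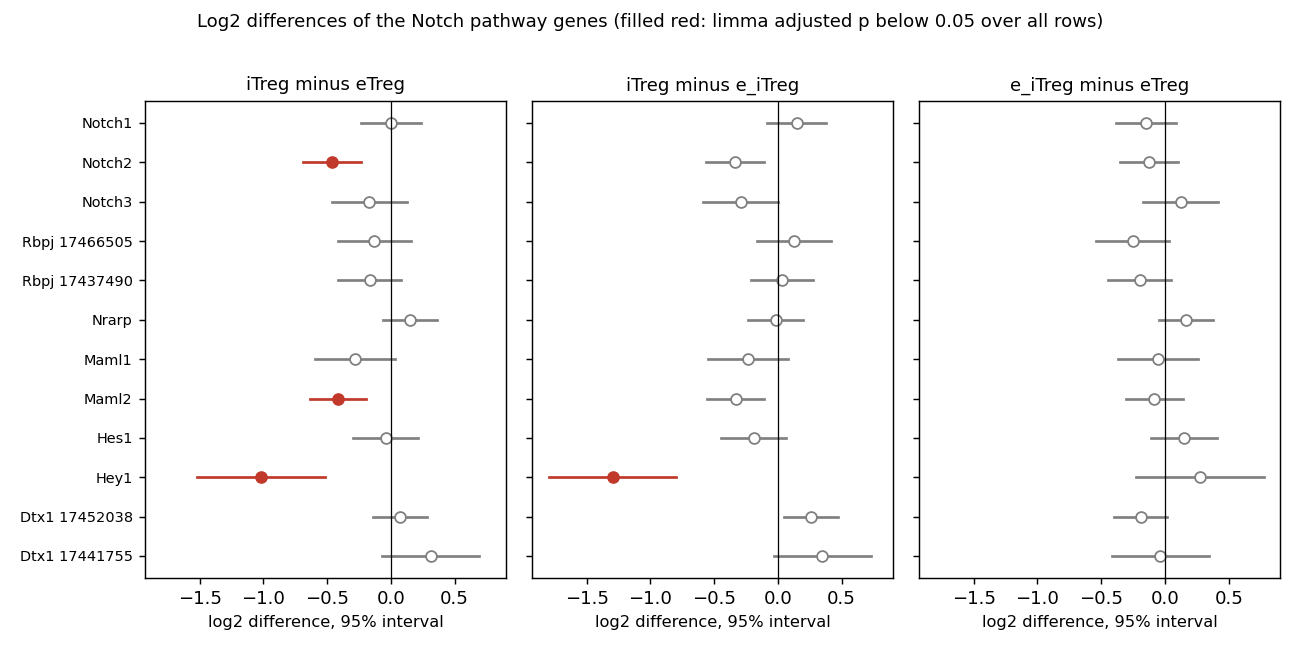
Log2 difference of each of the 12 probe sets in iTreg minus eTreg, iTreg minus e_iTreg and e_iTreg minus eTreg, with 95% confidence intervals from the limma fit. Filled points passed the adjusted p threshold; they are Hey1, Notch2 and Maml2 in iTreg minus eTreg and Hey1 in iTreg minus e_iTreg.

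The e_iTreg and eTreg groups did not differ past the threshold for any of the 10 genes. The largest differences in e_iTreg minus eTreg were 0.28 for Hey1 and -0.25 for Rbpj probe set 17466505. The second Rbpj probe set was at -0.20, and Dtx1 probe set 17452038 was at -0.19. Notch2 was at -0.13 and Maml2 at -0.08.

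Some other signals moved with the iTreg group or with single arrays. Treg and T cell markers (Foxp3, Il2ra, Ctla4, Ikzf2, Cd3e and Cd4) averaged 11.38 to 11.53 in iTreg, 11.41 to 11.55 in e_iTreg and 11.45 to 11.56 in eTreg, and 0 of 6 passed in any contrast. The mean of 11 measured B cell markers ranged from 7.11 to 7.51 in iTreg, from 6.37 to 7.84 in e_iTreg and from 6.31 to 7.93 in eTreg, and 0 of 11 passed in any contrast. The low values belonged to e_iTreg replicate 4 and eTreg replicates 3 and 4. With the B cell mean as a covariate the differences in iTreg minus eTreg passed, at -1.01 for Hey1, -0.44 for Notch2 and -0.42 for Maml2. Without those low arrays Hey1 passed, at -1.07, while Notch2, at -0.40, and Maml2, at -0.48, did not. After the group means were removed, the B cell mean correlated over the 12 arrays at r = -0.63 with Notch2, 0.21 with Maml2 and -0.05 with Hey1. The part of B cells in these values was not tested.

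Plasma cell markers averaged 9.29 on iTreg replicate 4, against 7.02 to 7.33 on the other iTreg arrays, 6.73 to 7.09 in e_iTreg and 6.57 to 6.93 in eTreg. The same array held the lowest Hey1 and Maml2 values and the highest value of Dtx1 probe set 17441755, and the part of those cells in these values was not tested. The mean of 12 monocyte, macrophage and dendritic cell markers was 7.97 on that array, 7.04 to 7.17 on the other iTreg arrays, 6.59 to 7.11 in e_iTreg and 6.61 to 7.08 in eTreg. Of these markers Itgam was 1.68 and Cst3 0.57 higher in iTreg than in eTreg on the log2 scale, past the threshold. Of 8 CD8 T and NK cell markers 1 rose, Nkg7 by 1.85, and of 7 endothelial and stromal markers 1 fell, Pecam1 by 0.45, in iTreg against eTreg. Against e_iTreg Itgam was 1.71, Cst3 0.47 and Nkg7 1.74 higher in iTreg, and Pecam1 was at -0.35 and Siglech, a plasmacytoid dendritic cell marker, at -0.45, each past the threshold. Signal of both Xist and Y-linked genes was present on 9 arrays. On iTreg replicate 4, e_iTreg replicate 4 and eTreg replicate 3 the signal of 1 sex was low, and these are the 3 arrays left out above. Of these, e_iTreg replicate 4 and eTreg replicate 3 are also among the 3 arrays low in B cell markers. The settings that leave out either set are therefore not separate checks.

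For the rest of the pathway, 65 further genes were listed by role and 61 of them had a probe set with 1 symbol, 68 probe sets in all. This list too was drawn up with earlier results of these arrays known, so its adjusted p-values, taken over all 23521 probe sets, are no independent support for the pathway. In iTreg against eTreg 2 of the 68 rose and 8 fell, beside the 5.36% and 4.63% of all probe sets. In iTreg against e_iTreg 4 rose and 5 fell, beside 6.49% and 4.75%. In e_iTreg against eTreg 0 passed. There 4 of the 68 had an unadjusted limma p below 0.05, beside 1649 of all 23521 probe sets. Without the 3 arrays of lowest B cell marker signal only Igf1r of these genes passed against eTreg, and Dtx3, Dtx4, Maml3, Adam17 and Igf1r passed against e_iTreg. All probe sets gave 211 higher and 189 lower against eTreg there, and 881 and 475 against e_iTreg. This setting leaves fewer arrays in eTreg than in e_iTreg, so the 2 contrasts cannot be compared by their number of calls. Without the 3 arrays with the signal of 1 sex, Igf1r, Kat2b and Neurl1b of these genes passed against eTreg, and Igf1r, Dtx3 and Hdac1 passed against e_iTreg. All probe sets then gave 690 higher and 474 lower against eTreg, and 747 and 323 against e_iTreg. The median difference of the 68 was -0.05 in iTreg minus eTreg, -0.05 in iTreg minus e_iTreg and 0.02 in e_iTreg minus eTreg.

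**Figure D3:**
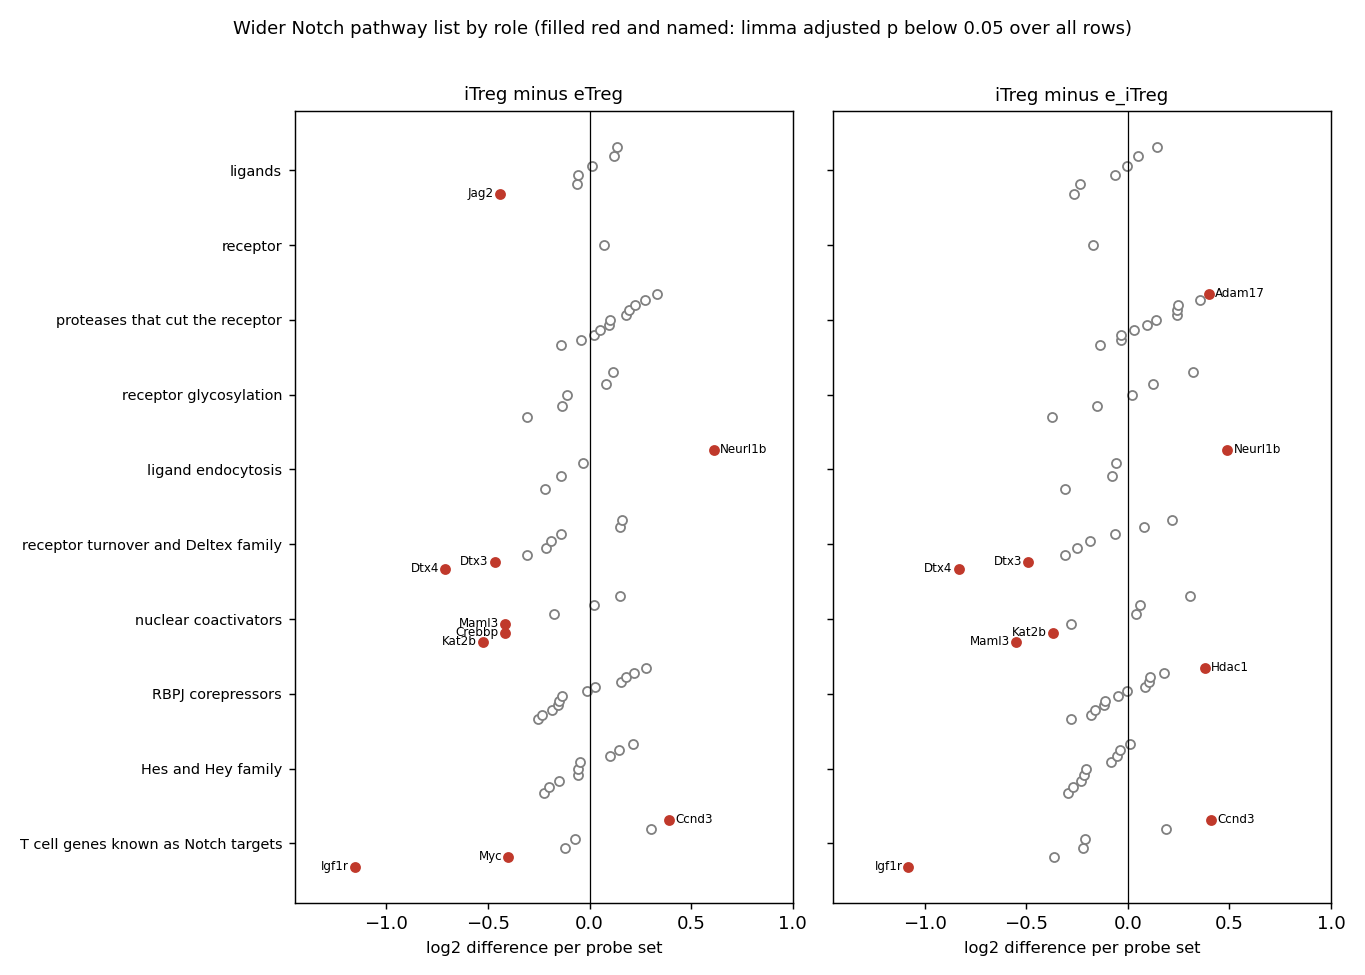
Log2 differences of the 68 probe sets of the wider pathway list by role, in iTreg minus eTreg on the left and iTreg minus e_iTreg on the right. Filled points with names passed the limma threshold, 10 on the left and 9 on the right, and Igf1r lies farthest from 0 in both panels.

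Among nuclear coactivators 3 of 6 fell in iTreg against eTreg and 0 rose, beside 4.63% lower and 5.36% higher over all probe sets. Kat2b, a histone acetyltransferase recruited to the Notch complex, read 9.28, 9.31, 9.30 and 9.63 in iTreg, 9.74, 9.57, 9.77 and 9.91 in e_iTreg, and 9.75, 9.996, 9.85 and 10.02 in eTreg. All iTreg arrays lay below all eTreg arrays. Its difference was -0.53 ± 0.11 in iTreg minus eTreg (limma adjusted p = 0.00712) and -0.37 ± 0.11 in iTreg minus e_iTreg (limma adjusted p = 0.0436). Maml3, the remaining Mastermind gene, read 6.59, 6.87, 6.87 and 6.58 in iTreg, 7.54, 7.26, 7.05 and 7.25 in e_iTreg, and 7.08, 7.34, 7.09 and 7.07 in eTreg. Here too the iTreg arrays were below all others. Its difference was -0.42 ± 0.12 in iTreg minus eTreg (limma adjusted p = 0.0385) and -0.55 ± 0.12 in iTreg minus e_iTreg (limma adjusted p = 0.00881).

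Crebbp, a second acetyltransferase, averaged 11.24 ± 0.11 in iTreg and 11.66 ± 0.04 in eTreg (limma adjusted p = 0.0473, SD, n = 4 each). Of the 3 Mastermind genes, Maml2 and Maml3 were thus lower in iTreg than in eTreg, while Maml1, at -0.28, did not pass. The calls for Kat2b against eTreg and Maml3 against e_iTreg held whichever array was left out. The call for Kat2b against e_iTreg held in 4 of the 12 such fits, and those for Maml3 and Crebbp against eTreg held in 6 and 2 of them.

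In the Deltex and receptor turnover group 2 of 8 fell in both contrasts, Dtx3 and Dtx4, which encode relatives of Deltex. Over all probe sets 4.63% were lower against eTreg and 4.75% against e_iTreg. Dtx3 averaged 8.29 ± 0.15 in iTreg and 8.76 ± 0.15 in eTreg (SD, n = 4 each), a difference of -0.47 ± 0.11 (limma adjusted p = 0.0132). In iTreg minus e_iTreg it was -0.49 ± 0.11 (limma adjusted p = 0.0101), and both calls held whichever array was left out. Dtx4 read 7.43, 7.65, 7.69 and 7.20 in iTreg, 8.09, 7.97, 8.45 and 8.78 in e_iTreg, and 7.86, 8.32, 8.77 and 7.87 in eTreg, with no overlap between iTreg and either other group. Its difference was -0.71 ± 0.21 in iTreg minus eTreg (limma adjusted p = 0.0439) and -0.83 ± 0.21 in iTreg minus e_iTreg (limma adjusted p = 0.0196). The calls held in 4 and 8 of 12 fits that left out 1 array, in that order.

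Of genes known as Notch targets in T cells, Igf1r, the receptor for insulin-like growth factor 1, had the largest difference of the list. It read 7.99, 8.15, 8.23 and 7.42 in iTreg, 8.96, 8.59, 9.19 and 9.36 in e_iTreg, and 8.88, 9.19, 9.32 and 9.02 in eTreg. No iTreg array reached any other array, and as for Hey1 iTreg replicate 4 was the lowest. The difference was -1.15 ± 0.18 in iTreg minus eTreg (limma adjusted p = 0.00189) and -1.08 ± 0.18 in iTreg minus e_iTreg (limma adjusted p = 0.00255), and both calls held whichever array was left out and without the 3 arrays of either kind. Myc, a growth regulator, averaged 9.80 ± 0.14 in iTreg and 10.20 ± 0.21 in eTreg (limma adjusted p = 0.0486, SD, n = 4 each), and held in 1 of 12 fits that left out 1 array. Ccnd3, which encodes cyclin D3, rose by 0.39 ± 0.11 against eTreg (limma adjusted p = 0.0329) and by 0.41 ± 0.11 against e_iTreg (limma adjusted p = 0.0253), in 7 and 8 of 12 such fits. Targets moved in both directions, so this group has no single direction.

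On the ligand side Neurl1b, a ubiquitin ligase of the Neuralized family that promotes ligand endocytosis, rose. It read 7.03, 6.70, 7.29 and 6.63 in iTreg, 6.40, 6.69, 6.33 and 6.27 in e_iTreg, and 6.29, 6.26, 6.40 and 6.25 in eTreg. All iTreg arrays were above all eTreg arrays, and 1 e_iTreg array reached the iTreg range. The difference was 0.61 ± 0.14 in iTreg minus eTreg (limma adjusted p = 0.0114), which held whichever array was left out, and 0.49 ± 0.14 in iTreg minus e_iTreg (limma adjusted p = 0.0349), which held in 7 of 12 such fits. Jag2, the Jagged ligand, averaged 6.40 ± 0.05 in iTreg and 6.84 ± 0.16 in eTreg (SD, n = 4 each) and was the only 1 of 6 ligand probe sets to pass, at -0.44 ± 0.12 (limma adjusted p = 0.0248), in 6 of 12 such fits. Against e_iTreg it was at -0.27 and did not pass.

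Adam17 and Hdac1 passed against e_iTreg and not against eTreg. Adam17, a protease that can cut Notch receptors, rose by 0.40 ± 0.09 (limma adjusted p = 0.0128), in all 12 fits that left out 1 array. Hdac1, a deacetylase of RBPJ corepressor complexes, rose by 0.38 ± 0.11 (limma adjusted p = 0.0436), in 3 of 12 such fits. Whether their differences from the 2 other groups differ is what e_iTreg minus eTreg measures, and there they were -0.22 and -0.23 and did not pass.

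**Figure D4:**
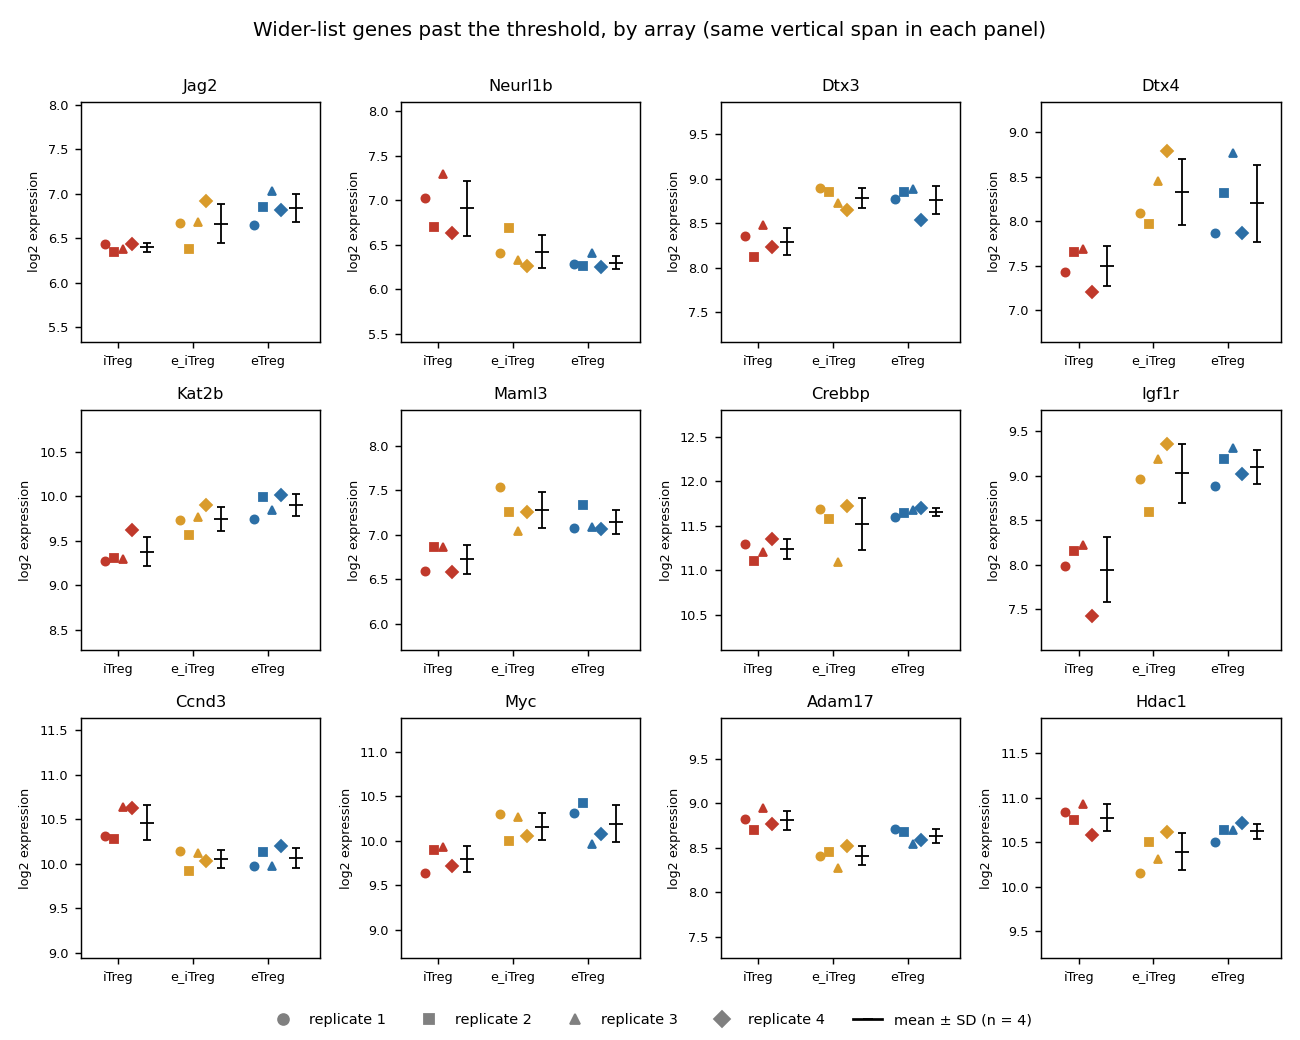
Log2 expression on every array of the 12 wider-list genes that passed in iTreg minus eTreg or iTreg minus e_iTreg. Symbols are replicates 1 to 4 of iTreg, e_iTreg and eTreg from left to right and bars are the mean ± SD (n = 4); Igf1r and Dtx4 show iTreg below both other groups, and Neurl1b shows iTreg above eTreg.

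The other roles had no probe set past the threshold in iTreg against eTreg. Of 11 probe sets for proteases, Furin was at 0.33 ± 0.13 and Adam10, the main ligand-dependent Notch protease, at 0.27 ± 0.11. Of 5 for the enzymes that add sugars to the receptor, Pofut1 was at -0.31 ± 0.12 and Mfng at -0.14 ± 0.11. Of 12 for corepressors, Spen was at -0.25 and Tle1 probe set 17414858 at 0.28, with the other Tle1 probe set at -0.15. Tle1 probe set 17414858 was dim, with means of 3.53 in iTreg and 3.25 in eTreg, against 6.17 and 6.32 for the other. Of 9 for other Hes and Hey family members, Hes5 probe set 17422443 was at -0.20 and Hes7 probe set 17264519 at -0.22. The other Hes5 probe set was at 0.14 and the other Hes7 probe set at -0.06. Notch4, the remaining receptor, was at 0.07. Apart from the other probe sets of Tle1, Hes5 and Hes7, these values describe the probe sets with the smallest p of each role, and none passed.

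Against e_iTreg Pofut1 was at -0.37 and Poglut1 at 0.32. Among Hes and Hey genes Hes5 probe set 17422443 was at -0.23, the other Hes5 probe set at -0.04 and Hes2 at -0.29. None of them passed the threshold. In e_iTreg minus eTreg the value with the smallest p of the wider list was Hdac2, at -0.37 ± 0.10 (limma adjusted p = 0.704). Notch4 was at 0.24 ± 0.09 there and did not pass.

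The genes whose pattern was most like those of Hey1, Notch2 and Maml2 were sought by Pearson correlation over the 12 arrays among 11275 genes. For Hey1 these were Glul (r = 0.960), Susd6 (r = 0.959) and Ptpn5 (r = 0.958). After the group means were removed the correlations were 0.868, 0.873 and 0.877. For Notch2 they were Ubxn7 (r = 0.970), Fam168a (r = 0.967) and Pcnx (r = 0.967), and 0.930, 0.890 and 0.875 after removal of group means. For Maml2 they were Synj2 (r = 0.944), Gm3317 (r = 0.943) and Dio3os (r = 0.938), and 0.805, 0.781 and 0.811 after removal of group means. All 9 were lower in mean in iTreg than in eTreg. They are the highest of many candidates and share the arrays, the group difference and the processing, so they are given as a description.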

How the data were processed

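RNA (2 ng per sample, per the labels' protocols) was amplified by a whole-transcript method. The authors deposited log2 values for each probe set, made with oligo and RMA per the submitters' processing notes; RMA corrects background, normalizes arrays and summarises probes. Versions and settings are not given in the sources used here. Of 41345 rows, 23521 had exactly 1 gene symbol in the probe annotation, 1814 several and 16010 none, and 23328 were named through the RefSeq gene table of GRCm38.p6. The values hold no detection call and no scan or batch record.

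One linear model was fitted to all 3 groups of 4 arrays by lmFit and eBayes of limma 3.58.1 under R 4.3.3, with 9 residual and 5.78 prior degrees of freedom. Tests were two-sided, adjusted by the Benjamini-Hochberg method over 23521 rows, with a threshold of 0.05. They were also run on simulated data with independent noise on each array. Those data hold no shared array effects, so they cannot vouch for the calls here. P-values reflect only how these samples spread, and precision is limited by the number of arrays (median SE 0.121). Members and lists were chosen with earlier results of these data known. All 10 genes are named, and from the wider list each gene past the threshold and otherwise the smallest p-values of each role (up to 2), though not each is printed for every contrast. Promoter sequences came from RefSeq (GRCm38.p6). Samples were not treated as paired by replicate number. Deviations of same-numbered arrays correlated between -0.15 and 0.24, which cannot exclude a pairing. Alternatives were other normalizations, filters, rows tested, error models, thresholds, samples and covariates, and leaving out each array.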

Additional observations from a re-analysis of the deposited data

Results flagged for a closer look

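Of 72 groups of 4 arrays examined over 24 probe sets, 4 held an array whose gap to its nearest neighbour, as a share of the range of its group, was above Dixon's 95% critical value. Chance flags about 1 in 20 groups. Notch3 on eTreg replicate 2 read 6.39, below 6.71 to 6.75 on the other eTreg arrays. Dtx1 probe set 17441755 on iTreg replicate 4 read 7.64, above 6.91 to 6.95 on the other iTreg arrays. Kat2b on iTreg replicate 4 read 9.63, above 9.28 to 9.31 on the other iTreg arrays, and its high value lies toward the eTreg arrays. Maml3 on eTreg replicate 2 read 7.34, above 7.07 to 7.09 on the other eTreg arrays.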

How the results depend on the processing

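Of 28 other settings, 12 left out 1 array each. No difference of the 10 genes that passed the threshold changed sign in any of them. Of those that did not pass, some turned sign under at least 1 setting. In iTreg minus eTreg these were Notch1, Hes1, Rbpj probe set 17466505 and Dtx1 probe set 17452038. In iTreg minus e_iTreg they were Nrarp and both Rbpj probe sets, and in e_iTreg minus eTreg Maml1 and Dtx1 probe set 17441755. The 10 genes had 3 probe sets lower in iTreg minus eTreg. That count was 1 with a fold of at least 1.5, 1 without the 3 arrays low in B cell markers, 0 without the 3 arrays with the signal of 1 sex, a setting chosen after seeing the data, and 2 to 3 with single arrays left out. Lower calls over all 23521 probe sets fell as well, from 1088 as reported to 397 with that fold. They were 189 without the arrays low in B cell markers and 474 without those with the signal of 1 sex. In iTreg minus e_iTreg 1 was lower. That count was 2 with the B cell marker mean as a covariate, 3 with adjusted p 0.1, an intensity trend, either filter on dim probe sets or quantile normalization, and 1 to 2 with single arrays left out. Lower calls over all probe sets there were 1117 as reported and 1159 with that covariate. They were 1917 with adjusted p 0.1, 1172 with the trend and 1311 after quantile normalization. The filters on dim probe sets gave 1242 lower of 11760 and 1313 of 14681.

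For the wider list, 2 rose in iTreg minus eTreg, against 1 after quantile normalization, with all rows tested, with only the 2 groups, with a fold of at least 1.5 or without the 3 arrays with the signal of 1 sex, 0 without those low in B cell markers, and 1 to 3 with single arrays left out. The 8 that fell there became 4 after median centring, 3 with all rows, 2 with a fold of at least 1.5, 1 without the arrays low in B cell markers, 2 without those with the signal of 1 sex, and 3 to 7 with single arrays left out, lowest without iTreg replicate 1 or eTreg replicate 2. The 4 that rose in iTreg minus e_iTreg became 2 after quantile normalization, 2 with all rows, 1 with only the 2 groups, 0 with a fold of at least 1.5, 1 without either set of 3 arrays, and 1 to 5 with single arrays left out, lowest without iTreg replicate 3. The 5 that fell there became 8 after quantile normalization or with either filter on dim probe sets, 9 with adjusted p 0.1, 3 with all rows, 2 with a fold of at least 1.5, 2 without the arrays with the signal of 1 sex, and 3 to 8 with single arrays left out, highest without e_iTreg replicate 2 and lowest without iTreg replicate 1 or e_iTreg replicate 4.

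With a replicate block 3 and 1 of the 10 genes' probe sets were lower against eTreg and against e_iTreg, and the wider list gave 2 higher and 6 lower, and 3 higher and 5 lower. The block changed no call of the 10 genes. Over all probe sets median centring gave 2023 higher and 516 lower in iTreg minus e_iTreg, beside 1526 and 1117 as reported. Without the 3 arrays low in B cell markers all probe sets gave 211 higher and 189 lower in iTreg minus eTreg, beside 1261 and 1088 as reported. In iTreg minus e_iTreg they gave 881 and 475. Without the 3 arrays with the signal of 1 sex they gave 690 and 474 against eTreg, and 747 and 323 against e_iTreg. With a fold of at least 1.5 they gave 692 and 397 against eTreg, and 812 and 309 against e_iTreg. The cause of these changes was not tested. Settings that left out arrays or changed the rows also differ in the number of arrays or of rows tested. Signal over background is not known for these values, which limits what dim probe sets can show.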
